A study of Mus musculus with 4 samples.

Results

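Mammary tumours of PAX8PPARg mice were compared with those of wild-type (WT) mice, both treated with RU486. The comparison used 2 of the 4 arrays of the study, 1 for each genotype under RU486, and covered all 12393 genes that had a probe set with a single gene symbol. All mice were female, nulliparous and of the FVB strain, and the controls were age-matched wild-type littermates; ages were not stated in the labels. Every mouse received 15 mg of the progestin MP (Depo-Provera) under the skin and then 4 weekly 1 mg doses of the carcinogen DMBA in cottonseed oil by gavage, so progestin and carcinogen were shared by all groups. The first of a pair of 60-day pellets was placed in the scapular region on the day after the final DMBA dose, and the other after 60 days. Pellets held 2.5 mg RU486 in the groups compared here and placebo in the remaining pair of groups. Each array carried labelled RNA pooled in equal amounts from 5 mice, so the spread between mice is unknown, nothing below was tested, and the precision of every value is limited by having 1 array a group.

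RU486 (mifepristone) blocks the receptors for progesterone and for glucocorticoids. PAX8PPARg is a fusion of the paired-box transcription factor PAX8 with the nuclear receptor PPARg, first known from thyroid carcinoma, and it can interfere with PPARg, the receptor that drives adipocyte differentiation and lipid storage. The transgene is driven by the mouse mammary tumour virus (MMTV) promoter, which works mainly in mammary epithelial cells and itself responds to progestins and glucocorticoids, the very hormones that RU486 opposes. The mammary ducts have an inner luminal layer, which can make milk, and an outer basal layer of contractile myoepithelial cells. Carcinogen-induced mammary tumours can also hold squamous areas, where cells cornify as in the epidermis. Around the epithelium lie fibroblasts, fat, vessels and immune cells, all of which contribute RNA to a pool made from whole tissue. In such a pool, fewer cells of a type and less RNA per cell cannot be told apart.

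Signals are given as deposited, on a linear scale, always with the WT arrays before the PAX8PPARg arrays and placebo before RU486 within each genotype. Differences are PAX8PPARg minus WT of log2(signal + 16) after centring every array on its median, so that 1 is a 2-fold difference and low signals give understated folds. A signal no higher than the brightest of the 27 bacterial controls of its array (9.6, 18.5, 8.3 and 35.3) is called within the background range; a difference that rests on such a signal is not exact, and its bound, written as at least, puts the dim signal at that control level. The PAX8PPARg and WT arrays under RU486 correlated at r = 0.917 over probe sets, which are not independent, and spike-in controls were 1.59 times as bright on the PAX8PPARg array. Ratios of 3' to 5' probe sets, which reflect RNA integrity, were 3.01 for Gapdh and 1.32 for Actb on the PAX8PPARg array, against 3.33 and 1.03 on the WT array. The part of these properties in the differences was not tested. For Pax8 every array gave a background signal (3.1 or less), and for Pparg the PAX8PPARg RU486 array did (13.2); whether either of them reads the fusion transcript was not stated in the labels, so neither checks the transgene.

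Under RU486, the PAX8PPARg tumours had far higher levels of epithelial genes and lower levels of macrophage and muscle genes than the WT tumours. Mast cell genes were mostly lower too, though dim, with all but Kit below the median level. Among the 6197 genes at or above the median level, 448 (7.23%) were higher in PAX8PPARg by 2-fold or more and 634 (10.2%) were lower by as much. The largest differences lay on the higher side. At 4-fold the counts were 185 higher (2.99%) and 144 lower (2.32%), and at 8-fold they were 101 higher (1.63%) and 24 lower (0.387%). The median difference was 0.01 over all genes, and blood vessel, respiratory chain and most collagen genes lay close to it. Of 308 genes past 2-fold measured by a further probe set, 304 had the same sign there and 227 were also past 2-fold.

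**Figure D1:**
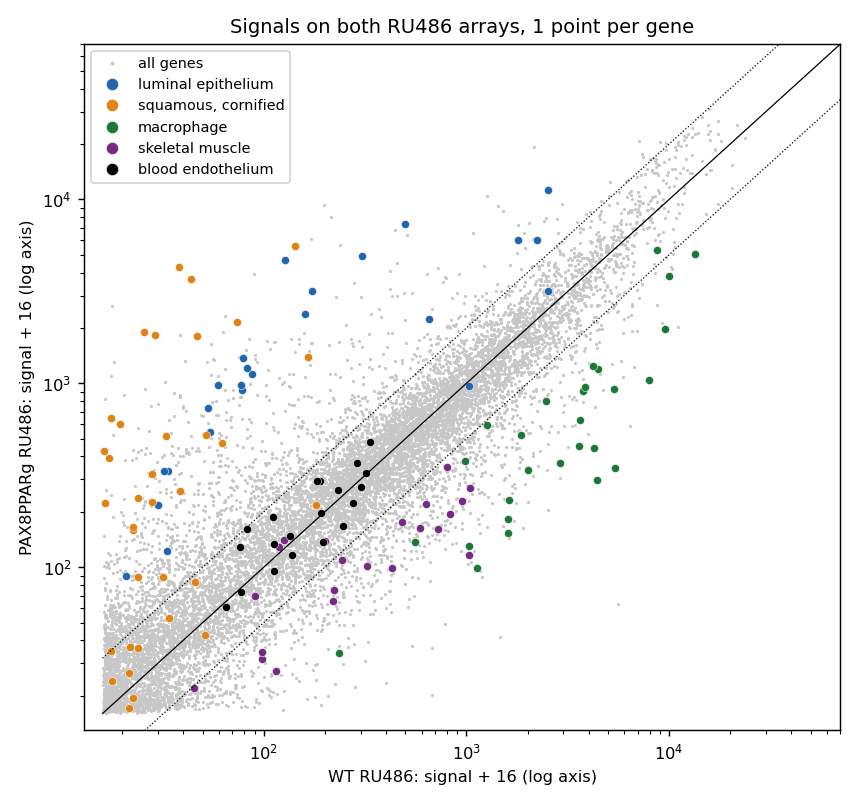
Signals of 12393 genes on the WT RU486 array (horizontal) and the PAX8PPARg RU486 array (vertical), each plus 16 and on log axes, with 1 point per gene and 5 gene lists in colour. The solid line marks equal signal and the dotted lines a 2-fold difference; luminal (blue) and squamous (orange) genes lie mostly above, macrophage (green) and muscle (purple) genes mostly below, and all 20 endothelial genes (black) lie between the dotted lines.

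For most of these genes the WT RU486 array was the extreme one of the 4. The genes were chosen for their difference between the RU486 arrays, which forces part of that order, so the shares are a description. Of the 448 genes at least 2-fold higher in PAX8PPARg, WT RU486 was the lowest array for 401 (89.5%), against 29.1% of all 6197 genes. It lay 2-fold or more below WT placebo for 320 of them (71.4%). PAX8PPARg RU486 lay within 2-fold of WT placebo for 328 (73.2%), a smaller share than the 93.1% of all 6197 genes. Of the 634 lower genes, WT RU486 was the highest array for 560 (88.3%), against 33.3% of all genes. Here it was 2-fold or more above WT placebo for fewer genes, 293 (46.2%). PAX8PPARg RU486 was within 2-fold of WT placebo for 501 (79.0%), again below the 93.1% of all genes. Over all 6197 genes, WT RU486 lay 2-fold or more from WT placebo for 13.2%, counting below for higher genes and above for lower ones. Signals peaked on the PAX8PPARg RU486 array for 257 of the 448 (57.4%), against 21.6% of all 6197 genes. They were lowest there for 430 of the 634 (67.8%), against 28.3% of all genes. With 1 pool a side, a difference between the genotypes cannot be told apart from a difference between the pools of 5 mice.

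Genes of the luminal layer were higher in PAX8PPARg almost throughout. Of 24 measured members, 22 were at least 2-fold higher and 0 lower, against 10.8% and 10.1% of all 12393 genes, and the median difference was 3.40. These shares of all genes are the background for every list count under RU486 that follows. Epcam, an adhesion molecule found on nearly all epithelial cells, read 6249, 479, 5564 and 7339. Cdh1, the E-cadherin of adherens junctions, read 2403, 157, 1934 and 3177. Krt7, a keratin of simple ductal epithelium, read 3687, 112, 1990 and 4659. For each of the 3 genes the WT RU486 signal alone was low, and the other 3 lay far closer to each other. The differences under RU486 were 3.83 for Epcam, 4.15 for Cdh1 and 5.14 for Krt7, a 35.2-fold difference for the last.

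The same order of the arrays held for genes of several luminal functions. The claudins, which seal tight junctions, differed by 3.49 (Cldn3), at least 2.60 (Cldn4) and 3.99 (Cldn7). Regulators of epithelial identity were higher too: the splicing factor Esrp1 by 3.82, and the transcription factors Grhl2 by 3.61 and Ehf by 3.84. So were the membrane protease St14 (3.63) and its inhibitors Spint1 (3.73) and Spint2 (3.95), and the trafficking genes Rab25 (4.07) and Ap1m2 (at least 3.22). The keratins shared by all simple epithelia differed less, by 2.10 for Krt18, 1.70 for Krt19 and, on its brightest probe set, 1.39 for Krt8. The other 2 probe sets of Krt8, which were also bright, differed by 0.28 and 0.34. The exceptions were Lgals3, a galectin that macrophages also make (2489, 2501, 1191 and 3141; difference 0.27), and Esrp2 (-0.14), whose other probe set differed by 3.13. The WT RU486 array was the lowest of the 4 for 22 of the 24 genes, with a median level of 6.47 log2 against 10.06 to 10.46 on the others. The labelled tissue, mammary tumour, therefore had most luminal genes at lower levels on the WT RU486 array than on the other 3, and 5 of the 24 were within the background range there. Not all were dim on that array. The 3 probe sets of Krt8 read 3384.5, 2427 and 2201, beside a median signal of 163 for the array.

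The promoters of these genes often held the E-box CAGGTG, to which the transcriptional repressors of the ZEB and SNAIL families bind. In the 250 bases before the start site, searched on both strands, CAGGTG occurred in 11 of 16 RefSeq promoters of 14 matched luminal genes (68.8%), against 17.2% of all 32851 promoters, and in 2 or more copies in 37.5% against 2.06%. A match is a description of letters and not a binding site. The 4 promoters shown were picked after their matches were seen, because they hold 2 to 4 copies and belong to genes with differences above 3 log2. Sequences are from RefSeq (GRCm38.p6), read 5′ to 3′ on the gene's strand, and capitals mark CAGGTG or its reverse complement.
Ap1m2 (chr9:21312334-21312583, minus strand): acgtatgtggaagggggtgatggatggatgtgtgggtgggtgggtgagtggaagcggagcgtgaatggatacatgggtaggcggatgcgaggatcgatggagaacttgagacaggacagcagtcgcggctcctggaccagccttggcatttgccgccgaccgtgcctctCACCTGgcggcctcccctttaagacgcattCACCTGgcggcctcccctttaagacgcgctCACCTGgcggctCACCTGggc
Spint2 (chr7:29281978-29282227, minus strand): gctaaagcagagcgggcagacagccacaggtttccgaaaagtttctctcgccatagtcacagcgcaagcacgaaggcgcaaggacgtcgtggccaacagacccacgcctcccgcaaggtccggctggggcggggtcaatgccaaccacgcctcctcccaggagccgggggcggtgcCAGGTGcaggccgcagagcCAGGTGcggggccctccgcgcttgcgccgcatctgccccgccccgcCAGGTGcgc
Rab25 (chr3:88548280-88548529, minus strand): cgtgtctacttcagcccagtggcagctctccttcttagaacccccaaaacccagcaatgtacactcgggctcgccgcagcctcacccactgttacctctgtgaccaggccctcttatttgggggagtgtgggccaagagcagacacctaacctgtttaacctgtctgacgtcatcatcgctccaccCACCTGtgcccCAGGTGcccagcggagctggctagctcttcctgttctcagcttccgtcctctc
Epcam (chr17:87635729-87635978, plus strand): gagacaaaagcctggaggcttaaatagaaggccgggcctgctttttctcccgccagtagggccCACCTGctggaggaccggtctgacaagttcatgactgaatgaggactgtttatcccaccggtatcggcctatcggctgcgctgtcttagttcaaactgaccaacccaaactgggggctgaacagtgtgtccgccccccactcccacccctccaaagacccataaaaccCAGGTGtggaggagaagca
In Ap1m2 the copies began 81, 51, 21 and 9 bases before the start site, and in Rab25 the pair began 64 and 53 bases before it.

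Genes of repressors that bind this E-box did not share 1 direction, and whether they act on these promoters was not tested. Zeb2 read 460, 2861, 769 and 290.5, highest on the WT RU486 array and lowest on the PAX8PPARg RU486 array, a difference of -3.29. Zeb1 differed by -1.63 on its brightest probe set but by 0.21 on the other. Snai1, at signals of 33.1, 106, 21.1 and 60.5, differed by -0.73. Snai2, which basal mammary cells express, was higher instead, at 184, 60.8, 339 and 299.5 (1.98). Among 19 mesenchymal genes, 10 were at least 2-fold lower and 1 higher, with a median of -1.33, and WT RU486 was the highest array for 15 of them. S100a4, a calcium-binding protein of fibroblasts and macrophages, read 3109, 11025, 1177 and 1995 (-2.51). The receptor kinase gene Axl (-1.77), Tgfbi (-1.71), Twist1 (-1.93) and the N-cadherin gene Cdh2 (-1.56) were lower as well, while vimentin (Vim, -0.46) and Sparc (0.04) were within 2-fold. Several of these genes, Zeb2 and S100a4 among them, are also made by macrophages, whose genes were lower too; their part was not tested.

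**Figure D2:**
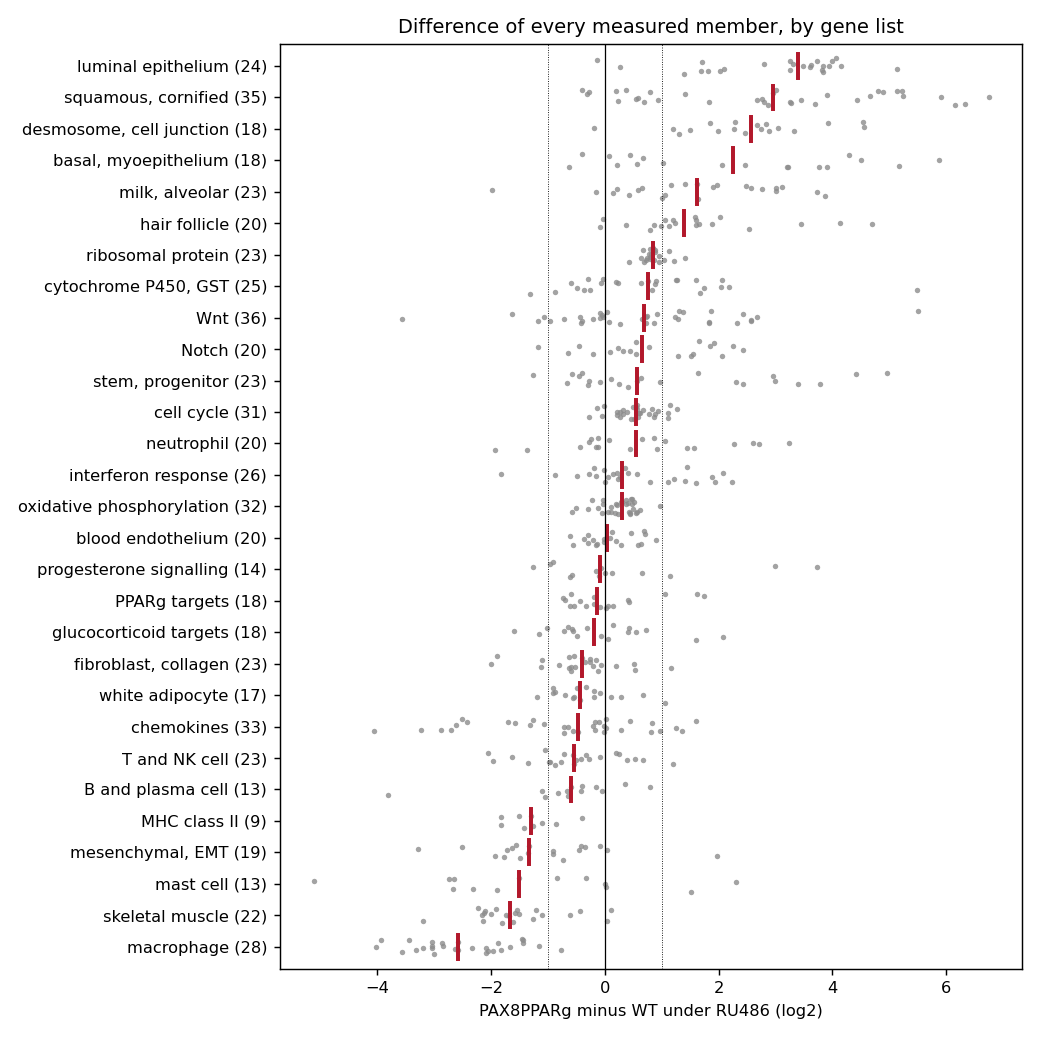
Difference of PAX8PPARg minus WT under RU486 on the log2 scale (horizontal) for every measured member of 29 gene lists (grey points, number of members in brackets), with the list median in red. Solid and dotted vertical lines mark no difference and a 2-fold difference; lists run from luminal epithelium (median 3.40) to macrophage (-2.58).

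Basal and junctional genes followed the luminal ones. Of 18 basal and myoepithelial genes, 11 were at least 2-fold higher and 0 lower, with a median of 2.26. The group was uneven. Keratins of the basal layer and some of its adhesion proteins were higher: Krt5 read 2082, 222, 1278 and 5637 (4.51), Lama3, a chain of laminin-332, 1059, 74.5, 655 and 1406 (3.92), and Col17a1 of hemidesmosomes 654, 76.4, 796 and 1289 (3.76). Laminins and integrins as a family were not higher, with 5 of 25 at least 2-fold higher, 7 lower and a median of -0.39. The laminin chain Lamb3 differed by 3.22, but Itga6 and Itgb4, the integrin pair of hemidesmosomes, by -0.39 and 0.45, and the leukocyte integrins Itgb2 and Itga4 by -2.29 and -2.28. Trp63, the transcription factor that defines the basal lineage, read 1222, 157, 1726 and 1637, low on the WT RU486 array alone (3.20). The contractile genes differed less, at 1.02 for Acta2, 0.66 for Mylk, 0.21 for Myh11, 0.07 for Tagln and -0.63 for Cnn1. Myh11 read 1370, 266, 2015 and 323, so here both RU486 arrays were low.

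Krt14 and Krt15 were among the genes with the largest differences. Krt14 read 5817, 199, 1475 and 8034, a difference of 5.17, and its other bright probe set differed by 5.03. Krt17, a keratin of hair follicles and activated epidermis, differed by 4.30. Krt15, a keratin of progenitor cells in stratified epithelia, read 329, 14, 523 and 1828, at least 5.68 higher in PAX8PPARg. Desmosome and junction genes were higher for 17 of 18 members, with a median of 2.57. Desmoplakin (Dsp), which ties desmosomes to keratin, read 1324, 405, 1911 and 3226 (2.89). The desmosomal cadherin Dsc2 differed by 4.56, occludin (Ocln) by 3.32 and Perp by 2.46, while plakophilin 2 (Pkp2) did not reach 2-fold (-0.20).

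**Figure D3:**
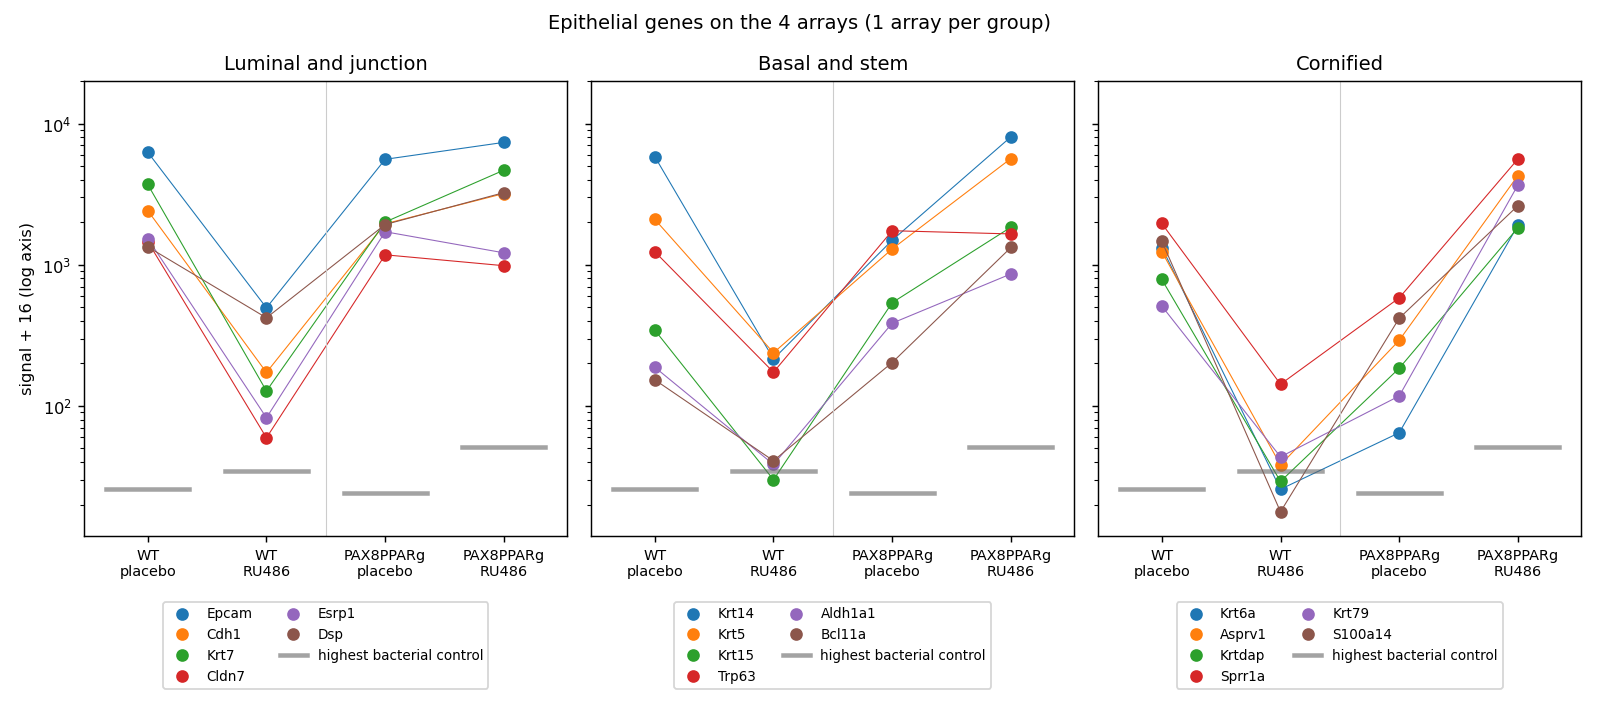
Signals plus 16 (vertical, log axis) of 6 luminal or junction, 6 basal or stem cell and 6 cornified panel genes on the 4 arrays. The cornified panel includes S100a14, which is not in the squamous list. Each group has 1 array, thin lines join the values of a gene and grey bars mark the brightest bacterial control. All 18 genes were lowest on the WT RU486 array, and the cornified panel genes were highest on the PAX8PPARg RU486 array.

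Cornification genes were among those with the largest single differences, and here the PAX8PPARg RU486 array was high in its own right. Of 35 squamous genes, 24 were at least 2-fold higher and 0 lower, with a median of 2.95. The highest signal of 25 was on the PAX8PPARg RU486 array, beside 21.6% of genes at or above the median level. Asprv1, a protease that processes filaggrin, read 1221, 22.2, 276 and 4267, a 108-fold difference (6.75). Krt79 read 494, 27.6, 102 and 3656 (6.34), and Sprr1a, a precursor of the cornified envelope, 1943, 127, 567 and 5597 (5.24). These 3 genes had their highest signal on the PAX8PPARg RU486 array and their lowest on the WT RU486 array, with WT placebo above PAX8PPARg placebo. Krt6a, a keratin of activated and hyperproliferative epidermis, read 1308, 9.7, 48.6 and 1890, at least 5.73 higher. Krtdap, a secreted product of differentiating keratinocytes, read 771, 13.2, 169 and 1813, at least 5.67 higher. S100a14, a calcium-binding protein of epithelia that is not in the squamous list, read 1453, 1.8, 402 and 2605, at least 6.19 higher.

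Members from both early and late steps of cornification were higher. The suprabasal keratin Krt10 was 3.01 higher and Krt1 at least 3.44, filaggrin (Flg) at least 2.63, the crosslinking enzyme Tgm1 2.87, and the envelope proteins involucrin (Ivl) and loricrin (Lor) at least 1.30 and 1.29. The 11 members within 2-fold included Krt13 (-0.39), Sprr2k (-0.32) and Sprr3 (-0.28), and among these 11 only Lce3c (0.20) and Tgm3 (0.80) were above the background range on both RU486 arrays. For 16 of the 35 only the WT RU486 signal was within the background range, and for a further 7 both RU486 signals were, so the sizes of their differences are not exact. For hair follicle genes the median was 1.40 and 14 of 20 were at least 2-fold higher. For 8 of the 20 only the WT RU486 signal was within the background range, and for 1 only the PAX8PPARg RU486 signal. Both RU486 signals were for a further 4, so these sizes are not exact either. Trichohyalin (Tchh), a protein of the inner root sheath, read 731, 43.6, 19.9 and 1073 (4.13). The kallikreins Klk7 (3.90) and Klk10 (4.14), proteases that act on the stratum corneum, and the serpin Serpinb11 (at least 4.69) were higher too. Skin near a tumour expresses the same genes, and its part in these signals was not tested.

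Promoters of the squamous genes often held TGANTCA, the site of the AP-1 transcription factors. The letters occurred in 17 of 29 promoters of 25 matched genes (58.6%), against 6.75% of all promoters, over the same 250 bases and both strands. Several of these genes belong to the Sprr family of close copies in 1 cluster, so the promoters are not independent. The 3 shown, picked after their matches were seen, belong to the early envelope gene Sprr1a, to Krtdap and to the classical marker Ivl, and capitals mark the motif.
Sprr1a (chr3:92485882-92486131, minus strand): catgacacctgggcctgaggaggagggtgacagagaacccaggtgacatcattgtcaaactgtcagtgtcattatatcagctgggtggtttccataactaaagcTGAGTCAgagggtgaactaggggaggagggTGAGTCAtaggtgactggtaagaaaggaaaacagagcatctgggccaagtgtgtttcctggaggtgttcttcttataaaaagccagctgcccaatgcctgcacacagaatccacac
Krtdap (chr7:30787655-30787904, plus strand): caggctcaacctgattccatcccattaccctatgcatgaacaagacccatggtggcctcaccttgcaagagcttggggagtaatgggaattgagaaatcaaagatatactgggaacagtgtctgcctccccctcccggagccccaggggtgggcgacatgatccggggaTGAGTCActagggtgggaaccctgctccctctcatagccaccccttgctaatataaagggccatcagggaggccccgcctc
Ivl (chr3:92573736-92573985, minus strand): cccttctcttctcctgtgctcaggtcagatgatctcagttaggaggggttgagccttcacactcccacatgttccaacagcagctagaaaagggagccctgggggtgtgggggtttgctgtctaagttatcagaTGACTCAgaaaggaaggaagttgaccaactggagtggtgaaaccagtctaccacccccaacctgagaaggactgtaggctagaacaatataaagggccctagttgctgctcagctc
The copy in Krtdap began 81 bases and that in Ivl 116 bases before the start site. Genes of AP-1 subunits and other immediate early genes had a median difference of -0.49, with 2 of 20 at least 2-fold higher and 6 lower. Fos read 695, 1797, 1578 and 332 (-2.44), Fosl1 229, 876, 19.2 and 186 (-2.20), and Fosb 66.5, 312, 66.7 and 23.4, with a bound of -2.73. The subunit genes named, all from the lower side of the list, were highest on the WT RU486 array. Over the 20 genes, that array was the highest for 11 and the PAX8PPARg RU486 array for 7. A link between these genes and the squamous promoters was not tested.

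Secretory genes were mostly higher. Of 23 milk and alveolar genes, 16 were at least 2-fold higher and 1 lower, with a median of 1.62. Elf5, the transcription factor of alveolar cells, read 3415, 41.9, 1650 and 782 (3.73), and the casein gene Csn2 read 11273, 430, 3159 and 6796 (3.88). Wap, the whey acidic protein gene, read 9419, 159, 34.2 and 257 (0.58), high on the WT placebo array alone. Xdh was lower, at 673, 348, 212 and 80.0 (-1.98). The WT RU486 array was the lowest of the 4 for 17 of the 23 genes. Stat5a, which relays the prolactin signal, read 2255, 362, 1399 and 338, low on both RU486 arrays (-0.15).

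Of 23 stem and progenitor genes, 9 were at least 2-fold higher, 13 were within 2-fold and 1 was lower. Over all genes, 10.8% were higher and 10.1% lower by as much. The list median was 0.57 (0.24 for members at or above the median level). The members named here are among the 9. Bcl11a, a transcription factor of mammary progenitors, read 137, 24.9, 187 and 1309, highest by far on the PAX8PPARg RU486 array (4.96). The retinaldehyde dehydrogenases Aldh1a1 (172, 22.5, 370 and 845) and Aldh1a3 (156, 26.5, 410 and 596) differed by 4.42 and 3.79. Prom1 (3.39), Sox10 (2.96) and the receptor kinase Kit (2.31), all present in luminal progenitors, were also higher. Id4, a regulator of basal stem cells, read 5464, 1247, 4762 and 10468 (3.0), and Lgr6 read 690, 315, 424 and 1829 (2.42).

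Signalling genes had large differences in both directions. Of 36 Wnt pathway genes, 13 were at least 2-fold higher and 4 lower, against 10.8% and 10.1% of all genes, with a median of 0.68. Secreted inhibitors led in both directions: Wif1, which binds Wnt proteins, read 875, 22.5, 235 and 1815 (5.51), and Dkk2 read 123, 1613, 102 and 128 (-3.56). Sostdc1, a further inhibitor of Wnt and BMP signals, was outside the list and read 1836, 154, 2442 and 6084 (5.10). The feedback genes Nkd2 (2.56), Nkd1 (at least 1.65) and Notum (203 on WT RU486 and 817 on PAX8PPARg RU486; 1.87) were higher. Of 20 Notch genes, 9 were at least 2-fold higher and 1 lower, with a median of 0.66 (1.28 for members at or above the median level): the ligands Dll1 (2.44) and Jag2 (1.86), the receptors Notch1 (1.28) and Notch3 (1.51) and the targets Nrarp (2.06) and Heyl (1.66). Notch2 was lower (-1.17). Among EGF receptor genes, Erbb3 read 1693, 127, 2556 and 1470 (3.32), and Erbb2 differed by 1.57 and Egfr by 0.64.

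Macrophage genes were lower in PAX8PPARg as a whole group. Of 28 measured members, 27 were at least 2-fold lower and 0 higher, with a median of -2.58, and all 28 had their highest signal on the WT RU486 array. Cx3cr1, the fractalkine receptor, read 124, 1580, 130 and 137, a 10.9-fold difference (-3.44). Csf1r, the receptor on which macrophages depend, read 2886, 9520, 2690 and 1954 (-2.33). Mrc1, the mannose receptor, read 1345, 7957, 1094 and 1023 (-3.0). In each case the WT RU486 signal alone was high and the other 3 arrays were alike. Summed over the 28 genes, the signal was 111300 on the WT RU486 array and 28120 to 30070 on the other 3. None of the 28 was near 0 on all arrays, and only Trem2 had a background signal on the PAX8PPARg RU486 array.

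The list held both resident and recruited cell genes. Lyve1, F13a1, Folr2, Stab1 and Siglec1, marks of resident tissue macrophages, differed by -3.94, -3.32, -3.20, -3.03 and -3.05. Fcrls, an Fc receptor-like gene, had the largest negative difference of all genes above the median level, with signals of 675, 5390, 847 and 332 (-4.02, a 16.2-fold difference). Ccr2, the receptor of recruited monocytes, which was outside the list, read 312.5, 1880, 435 and 147 (-3.60). The complement genes C1qa (-2.05), C1qb (-1.46) and C1qc (-2.59), Apoe (-1.96) and the scavenger receptor Msr1 (-3.03) were lower too. Lyve1 also marks lymphatic vessels, for which 4 further genes were measured. Flt4 differed by 0.66, Reln by 0.43 and Pdpn by 0.34, and Prox1, the factor of lymphatic identity, by -0.48 with both RU486 signals within the background range.

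**Figure D4:**
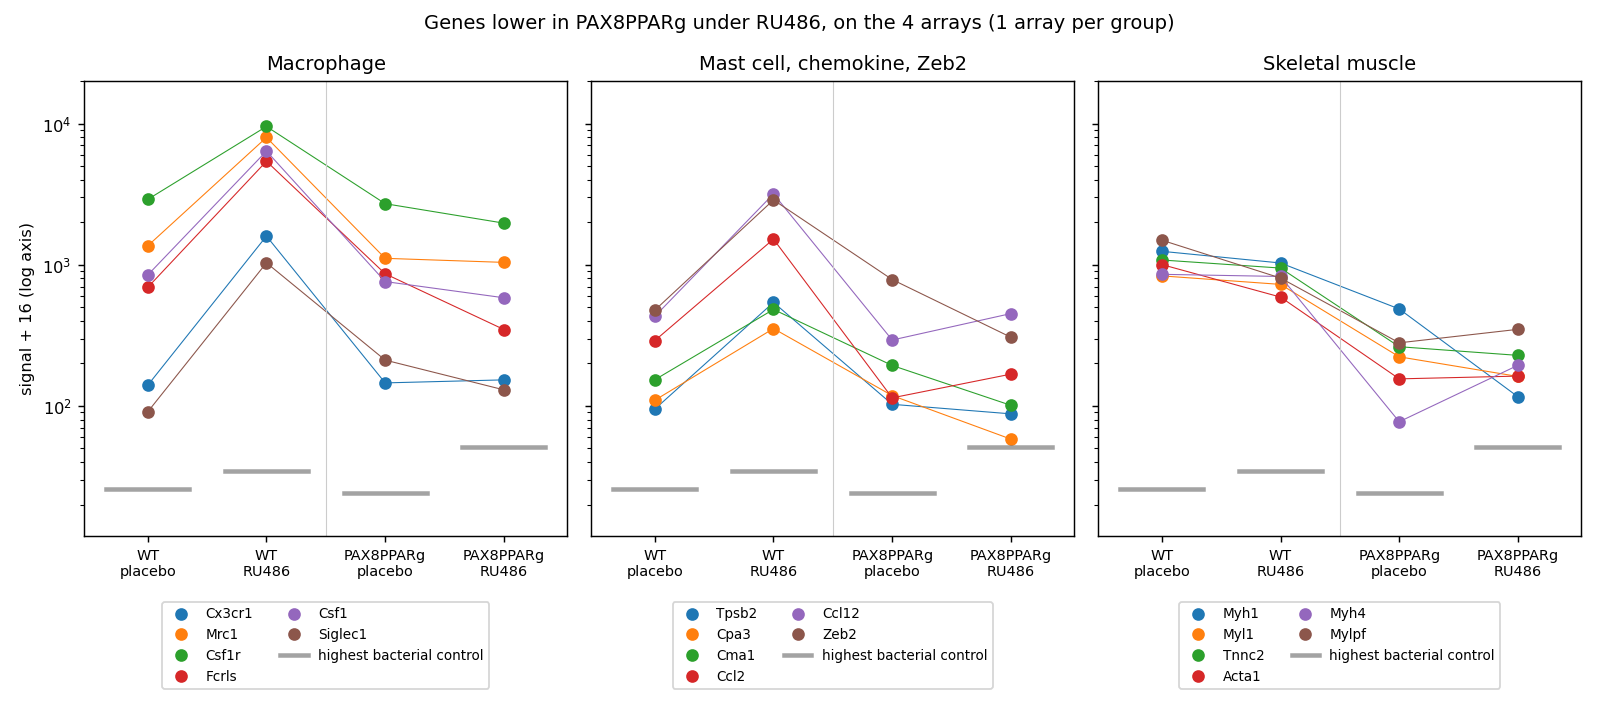
Signals plus 16 (vertical, log axis) of macrophage genes with Csf1, of mast cell and chemokine genes with Zeb2, and of skeletal muscle genes on the 4 arrays, with 1 array per group; thin lines join the values of a gene and grey bars mark the brightest bacterial control. In the left and middle panels all 12 genes were highest on the WT RU486 array, while the 6 muscle genes were high on both WT arrays.

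The growth factor gene Csf1 and several chemokines that attract monocytes were lower with them. Csf1, which encodes the growth factor of the macrophage lineage, read 830, 6366, 744 and 568 (-3.51, an 11.4-fold difference). Its list of 20 colony-stimulating and other growth factor genes had no common direction, with 5 at least 2-fold higher, 5 lower and a median of 0.11. The monocyte chemokines Ccl2 (274, 1503, 98.1 and 152), Ccl12 (415, 3159, 277 and 435) and Ccl7 (117, 771, 54.6 and 110) differed by -3.23, -2.87 and -2.70. Ccl6 (-2.43) and Ccl9 (-2.51) were lower as well. Over the whole chemokine family the difference was less even: 12 of 33 members were at least 2-fold lower and 3 higher, with a median of -0.47 (-1.26 for members at or above the median level). For MHC class II genes, which present antigen, the median was -1.30, 7 of 9 were at least 2-fold lower, and PAX8PPARg RU486 was the lowest array for 7. Cd74, the invariant chain, read 4334, 10146, 5541 and 4294 (-1.29).

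The macrophage promoters were read for GAGGAAG, the core letters of sites of PU.1, the factor that specifies myeloid cells. It occurred in 6 of 25 promoters of 19 matched genes (24.0%), against 10.6% of all promoters. The AP-1 letters TGANTCA were also more frequent, in 4 of the 25 against 6.75% of all promoters. CAGGTG was not, in 4 of the 25 against 17.2%. The higher share was thus not particular to GAGGAAG. It rests on few promoters, and those of 1 gene are not independent. The 2 shown, picked after their matches were seen, belong to a gene of high signal, Mrc1, and to Fcrls, and capitals mark GAGGAAG or its reverse complement.
Mrc1 (chr2:14229164-14229413, plus strand): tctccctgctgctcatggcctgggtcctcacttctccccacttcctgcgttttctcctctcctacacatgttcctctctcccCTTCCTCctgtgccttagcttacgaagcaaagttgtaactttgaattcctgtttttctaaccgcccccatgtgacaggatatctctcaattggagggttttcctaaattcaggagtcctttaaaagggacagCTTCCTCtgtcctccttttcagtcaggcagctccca
Fcrls (chr3:87263525-87263774, minus strand): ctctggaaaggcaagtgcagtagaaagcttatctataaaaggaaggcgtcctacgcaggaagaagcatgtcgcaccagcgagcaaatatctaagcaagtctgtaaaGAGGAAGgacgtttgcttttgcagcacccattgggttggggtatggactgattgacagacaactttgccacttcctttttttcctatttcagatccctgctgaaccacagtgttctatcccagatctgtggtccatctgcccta
The gene of PU.1 itself, Spi1, read 78.7, 288, 73.7 and 103, highest on the WT RU486 array (-1.41); it was chosen after its values were seen.

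Other immune cells did not share 1 direction. For mast cell genes the median was -1.51, and 7 of 13 were at least 2-fold lower and 2 higher. The carboxypeptidase Cpa3 (93.7, 337, 102 and 42.2) and the chymase Cma1 (137, 466, 178 and 85.0) differed by -2.66 and -2.31, and the tryptase Tpsab1, at 660.5 on WT RU486 and 4.2 on PAX8PPARg RU486, by -5.12 with a bound of -3.78. Tpsb2 differed by -2.68 on its brightest probe set and by -0.31 on the other. Kit, which mast cells and luminal progenitors both express, went the opposite way (2.31). Neutrophil genes had a median of 0.55 (7 of 20 higher, 2 lower), which was 2.27 for members at or above the median level and 0.96 and 0.21 with pseudocounts of 1 and 64. Among them S100a9 read 2366, 356, 394 and 2517 (2.71) and Ltf 4880, 286, 604 and 2937 (3.23), and keratinocytes and mammary epithelium also make them. The T and NK cell median was -0.54 and the B and plasma cell median -0.60, with 17 of 23 and 10 of 13 members within 2-fold. Many of these genes were dim. Of the 23, 3 were within the background range on both RU486 arrays and 9 on the PAX8PPARg RU486 array only. Of the 13, the counts were 5 and 3. Low signals understate folds, so being within 2-fold does not show that these cells were even. Ighm was far lower at its brightest probe set (101, 1177, 826 and 72.0; -3.82), though its 11 probe sets, some of them dim, ranged from -4.10 to 0.37.

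Skeletal muscle genes were lower in PAX8PPARg, and with them the order of the arrays differed. Of 22 members, 18 were at least 2-fold lower and 0 higher, with a median of -1.66. The troponin gene Tnnc2 read 1064, 931, 247 and 212 (-2.11), and the myosin light chain gene Myl1 818, 710, 207 and 146 (-2.22). Both WT arrays were high and both PAX8PPARg arrays low for these genes, and under placebo the median was -1.56 as well. The myosin heavy chain gene Myh1 differed by -3.21, and by -2.97 on its other bright probe set. Summed over the list, signals were 10490 and 9054 on the WT arrays and 2927 and 2567 on the PAX8PPARg arrays. Muscle is a neighbour of the mammary fat pad, and its part in these signals was not tested.

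Genes of the remaining stroma were close to even. None of 20 blood endothelial genes differed 2-fold (median 0.04), with Kdr at -0.36 and Cdh5 and Pecam1 within 2-fold. Of 23 fibroblast and collagen genes, 18 were within 2-fold (median -0.40); decorin (Dcn) was higher (1.16), and Col12a1 (-1.99) and the receptor gene Pdgfra (-1.89) were lower. White adipocyte genes had a median of -0.44, with 15 of 17 within 2-fold: adiponectin (Adipoq) read 329, 165, 4509 and 123, so the PAX8PPARg placebo array alone was high. The list of PPARg targets, which overlaps with it, showed a median of -0.14 (mean 0.06). Of its 18 members, 3 were at least 2-fold higher and 0 lower, beside 10.8% and 10.1% of all genes, so the count does not set this list apart. Its higher members were Fabp5 (4868, 2953, 4739 and 9460; 1.62), a fatty acid carrier of keratinocytes and macrophages, Cyp4b1 (1.75) and Gpd1 (1.06, and 1.18 on its other bright probe set).

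Receptors and target genes of the hormones that RU486 antagonizes were mostly within 2-fold, but so were most of the 12393 genes. Only 10.8% of those passed 2-fold upwards and 10.1% downwards. Being mostly within 2-fold is therefore no mark of the progesterone and glucocorticoid target lists. Of 20 hormone receptor genes, 18 were, with a median of 0.03 (mean -0.11). Pgr, the progesterone receptor, read 37.3, 37.9, 236 and 78.0 (0.74), and Nr3c1, the glucocorticoid receptor, 968, 1165, 1179 and 908 (-0.41). Esr1, the estrogen receptor, read 106, 78.3, 363 and 2.3 with a bound of -0.94. Of 14 genes of progesterone signalling, 3 were at least 2-fold higher and 1 lower (median -0.09, mean 0.29). The 3 were Elf5, Id4 and Hsd11b2 (1.14), while Tnfsf11, the gene of RANKL and the main paracrine signal of progesterone, read 669, 106, 3139 and 102 (-0.10), low on both RU486 arrays. Glucocorticoid targets had a median of -0.19 (2 of 18 higher, 3 lower); Tsc22d3 (774, 772, 745 and 254) differed by -1.60 on its brightest probe set and less on the other 2, and Per1 by -1.16, while Fkbp5 differed by -0.58. Genes of hormone-sensing luminal cells had a median of 0.01 (mean 0.50), beside 3.40 for the general luminal list. Of these 17 genes, 3 were at least 2-fold higher and 1 lower. Both RU486 signals were within the background range for 3 of the 17, and the PAX8PPARg RU486 signal alone for 4.

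Metabolic and growth genes differed by less. Of 31 cell cycle genes, 27 were within 2-fold with a median of 0.55, and 27 were above 0. The highest signal of 23 was on the PAX8PPARg RU486 array, beside 21.6% of genes at or above the median level. The mitotic genes Kif23 (1.26), Nusap1 (1.15), Bub1b (1.12) and Bub1 (1.11) passed 2-fold. The cell cycle inhibitor Cdkn1a read 2980, 770, 1468 and 3754 (2.21). Of 32 genes of oxidative phosphorylation none passed 2-fold (median 0.30). For hypoxia and glycolysis genes the median was 0.33 and 6 of 23 were higher, led by Ndrg1 (5482, 1062, 2096 and 6580; 2.56), which epithelia also express. Ribosomal protein genes were above 0 in 23 of 23 cases with a median of 0.84, which was 0.32 under quantile normalization. Among detoxification genes, the glutathione transferase Gsta4 read 2047, 183, 1638 and 9302 (5.49) and the quinone reductase Nqo1 189, 171, 223 and 790 (2.05); the remaining 23 members ran from -1.32 to 2.19.

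The genotype difference under placebo shares no array with the one under RU486, and the pair was set side by side. Under placebo, 117 genes at or above the median level were at least 2-fold higher (1.89%) and 272 lower (4.39%) in PAX8PPARg, and the spread over genes was 0.60 against 0.95 under RU486. The epithelial lists did not show the RU486 difference there: medians under placebo were -0.37 (luminal), -0.55 (junction), -0.10 (basal), -1.79 (squamous), -1.79 (milk) and -2.17 (hair). All 6 medians were thus below 0 under placebo and above 0 under RU486. Macrophage genes had a placebo median of -0.09, with 2 of 28 at least 2-fold higher and 2 lower, beside 4.28% and 5.5% of all genes. Adipocyte and B cell genes had placebo medians of 2.17 and 2.65, beside -0.44 and -0.60 under RU486.

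Most genes past 2-fold under RU486 were within 2-fold under placebo, 348 of the 448 higher and 532 of the 634 lower genes. Of the 448, 25 (5.58%) were also at least 2-fold higher under placebo and 75 (16.7%) were lower by as much, beside 1.89% and 4.39% of all genes at or above the median level. Of the 634, 74 (11.7%) were at least 2-fold lower and 28 (4.42%) higher under placebo, so genes past 2-fold under RU486 were past it under placebo in both directions more often than these shares. The differences under RU486 and under placebo correlated at r = -0.09 over genes, which are not independent. List medians had opposite signs under the treatments for 28 of 52 lists. Those with 1 sign under both included skeletal muscle, mesenchymal (-1.33 under RU486 and -0.59 under placebo), mast cell (-1.51 and -0.33), fibroblast and collagen (-0.40 and -0.68), Notch (0.66 and 0.12) and interferon genes. Interferon genes had medians of 0.31 under RU486 and 0.67 under placebo; Ifit1 read 84.4, 43.3, 196 and 276 (2.24 and 0.89) and Usp18 29.3, 40.1, 189 and 201 (1.89 and 1.99), higher on both PAX8PPARg arrays than on both WT arrays.

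**Figure D5:**
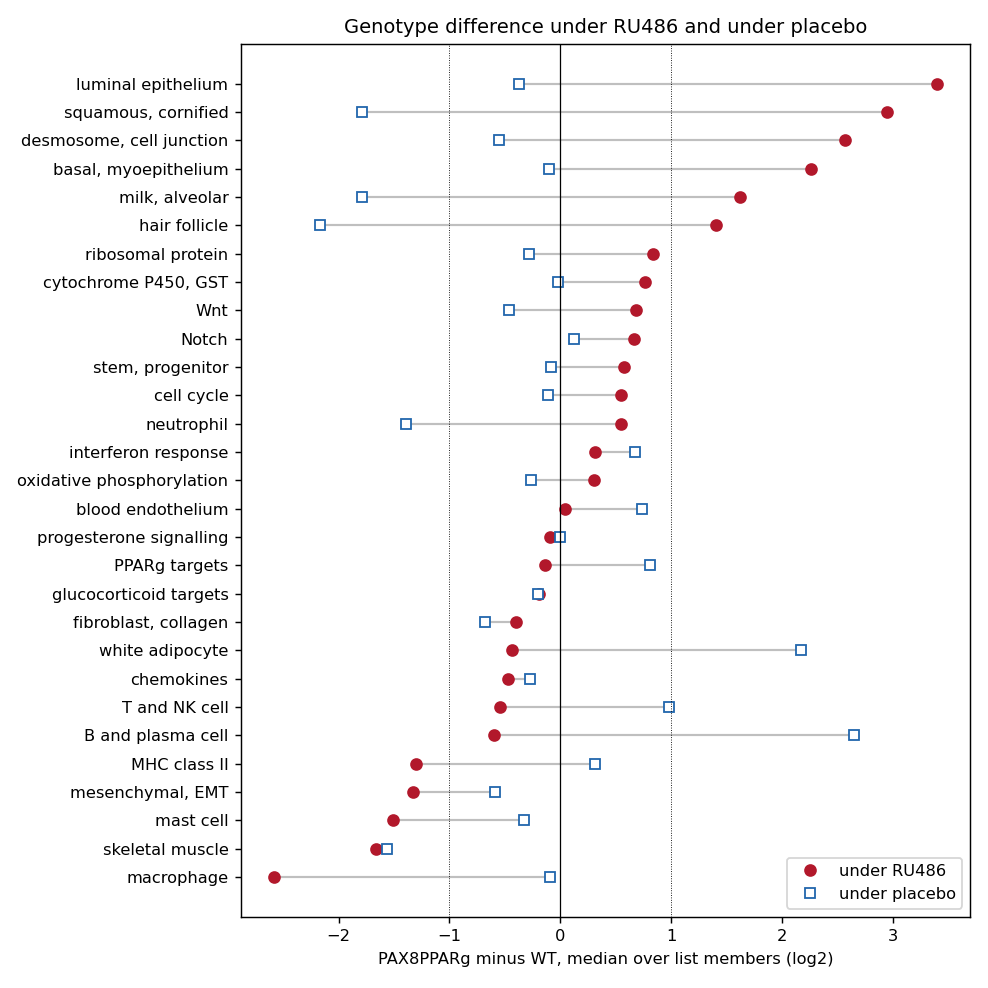
Median difference of PAX8PPARg minus WT on the log2 scale (horizontal) over the members of 29 gene lists, under RU486 (red circles) and under placebo (blue squares), each from 1 array per genotype. Epithelial lists lie at the right under RU486 and at or left of 0 under placebo, muscle genes lie at -1.66 and -1.56, and the macrophage list lies at -2.58 and -0.09.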

How the data were processed

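The authors' deposited probe set signals of 4 Affymetrix arrays, with intensity on a linear scale as the unit, were used as they stand; the summarisation software was not given in the labels, and trimmed means of 500.15 to 500.20 show a common scaling. Of 22626 non-control probe sets, GEO's platform annotation, which can be old, gave 1 symbol to 20380, several to 691 and none to 1555. Each gene took its brightest probe set by mean over the arrays. Values were log2(signal + 16), centred on each array's median. Counts used the 6197 genes at or above the median level, and 52 gene lists used every measured member. Each group has 1 array, so nothing was tested. The members and lists were chosen with earlier results of these data known. Genes were named by rule: the 15 largest differences each way, up to 6 members of a list in the direction of its median and 3 in the other, and the hormone receptors. Genes beyond the rule, such as further list members, were picked after their values were seen. Alternatives were centring, quantile normalization, pseudocounts of 1 and 64, probe set choice, level filters and list means. Scripts were tested on simulated data. Python 3.11.15, numpy 2.4.6, pandas 2.3.3 and matplotlib 3.10.9 were used.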

Additional observations from a re-analysis of the deposited data

Results flagged for a closer look

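Genotype differences under RU486 and under placebo had opposite signs for 22 of the 30 genes with the largest RU486 differences and for the medians of 28 of 52 gene lists. Given here are the 13 genes and 3 lists for which both differences were also 2-fold or more. These double differences (RU486 minus placebo) come from 4 single arrays and were not tested. As list medians they were 4.82 for squamous, 4.05 for milk and alveolar, and 3.24 for hair follicle genes.

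Among genes higher in PAX8PPARg under RU486, the double difference was 10.7 for Krt6a, 9.15 for S100a14, 9.03 for Asprv1, 8.65 for Krt79, 8.22 for Dmkn, 8.19 for Krtdap, 7.53 for Wif1, 7.33 for Krt14, 7.18 for Sprr1a, 6.43 for Serpinb11 and 6.21 for Krt7. Of these, Krt6a, S100a14, Krtdap and Serpinb11 did not exceed the bacterial controls of the WT RU486 array, so their values are not exact. Of the genes lower under RU486, Lyve1 gave -5.37 and Ighm -6.47, the latter with probe sets that disagreed in size.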

How the results depend on the processing

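No paired analysis was possible because each group has 1 array, and for the same reason no replicate could be left out. Without the level filter 1341 genes were higher and 1255 lower; the other settings gave 416 to 662 higher and 544 to 847 lower. With pseudocounts of 1 and 64 the list medians were 3.87 and 2.68 (luminal), 1.97 and 1.10 (milk), 2.70 and 1.58 (basal), 3.95 and 1.94 (squamous), 2.39 and 0.62 (hair), -2.16 and -0.74 (mast cell) and -2.04 and -1.23 (muscle), and the junction median was 1.78 with 64. The luminal mean was 2.95, and the milk median with averaged probe sets was 1.11. Members at or above the median level gave 1.97 (milk), 3.20 (basal), 5.58 (squamous) and -2.00 (muscle), and for mast cells 2.31, where Kit alone remains. Members above background on an RU486 array, a setting added after seeing the data, gave 3.37 (squamous) and -1.89 (mast cell). No named gene past 2-fold changed sign under these settings. Dim signals, pools of 5 mice and single arrays limit every size given.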

Other observations

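Beyond the gene lists, further epithelial genes were higher in PAX8PPARg under RU486; they were picked after their values were seen. The transcription factor gene Tfap2c read 3333, 491, 4016 and 6389 (3.60), Grhl1 1619, 59.9, 791 and 823 (3.41) and Klf5 393, 154, 226 and 1247 (2.84). The water and glycerol channel gene Aqp3 of basal keratinocytes read 558, 38.7, 46.7 and 1628 (4.85), and Lgals7, a galectin of stratified epithelia, 418, 36.5, 378 and 1289 (4.58). Krt23 (5.40), Trim29 (4.28), the kinase Ripk4 (3.74) and the GABA receptor subunit Gabrp (3.61) were higher as well. For each of these 9 genes the WT RU486 signal was the lowest of the 4. Foxa1, a pioneer factor of hormone-sensing luminal cells, read 247, 41.5, 1146 and 33.6, so unlike these genes it was low on both RU486 arrays.

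On the lower side, outside the lists, stood further myeloid genes and some of the matrix. The anaphylatoxin receptor C3ar1 read 852, 3954, 557 and 516 (-2.96), the inhibitory Fc receptor Fcgr2b 1559, 5887, 584 and 1068 (-2.50), the lectin Clec10a 241, 871, 474 and 119 (-2.78) and properdin (Cfp) 467, 2122, 572 and 299 (-2.82). Efemp1, a fibulin of the extracellular matrix, read 328, 2519, 416 and 190 (-3.68), and elastin (Eln) 876, 1701, 1492 and 266 (-2.66). All 6 were highest on the WT RU486 array. Igkv8-30, an immunoglobulin light chain segment, read 216, 3431, 6783 and 574, with differences of -2.60 under RU486 and 4.68 under placebo.

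The matrix metalloproteinase genes were uneven. Mmp13, an interstitial collagenase, read 2357, 48.7, 5.4 and 1175, and Mmp10, a stromelysin, 2303, 844, 0.5 and 1385. On the PAX8PPARg placebo array neither exceeded the bacterial controls, and under RU486 Mmp13 differed by 4.14 and Mmp10 by 0.65. Hmga2, a chromatin protein of embryonic and tumour cells, read 3671, 7072, 45.8 and 2886, low on the PAX8PPARg placebo array alone.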
